A study of Canis lupus familiaris with 30 samples.

Results

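Collagens are the main structural proteins of the extracellular matrix, each a triple helix of chains coded by separate genes. In RNA sequenced from 30 canine thyroid carcinomas, the collagen genes were taken as every row of the count table whose symbol reads COL, a number, A and a number. The rule found 42 of the 30424 genes in the table. Of these, 38 had at least 10 counts in at least 5 tumors and entered the analysis of spread and of relations between genes. The other 4 were *COL9A1*, *COL9A3*, *COL19A1* and *COL20A1*, all members of the class that binds to the surface of fibrils. *COL6A2* and *COL18A1* had no row under their symbols and were not analysed here.

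All samples were primary thyroid gland tumors of dogs, with no treatment named in the labels. Total RNA was sequenced after removal of ribosomal RNA, and between 12288945 and 45148677 reads per tumor (median 25569678) were counted on genes. The study classed its tumors as follicular or medullary carcinomas with several growth patterns, but the sample labels name neither. The tumors were therefore handled as 1 group of 30, and no comparison of tumor types or growth patterns was made. A clustering of the tumors on 758 variable genes, with the collagen genes left out, gave a branch of 25 tumors and a branch of 5 (TC1020, TC1473, TC1601, TC1936 and TC2289). Relations between genes were taken within the 25 tumors, so that they could not rest on the gap between the branches. No test compared the branches. Levels are log2(normalized count + 1), where a count was divided by the tumor's size factor. They are not corrected for transcript length, so a level is compared between tumors and never between genes.

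*TG*, which codes for thyroglobulin and marks the thyroid follicular cell, had its lowest level at 3.70 in TC1088, its median at 18.31 and its highest at 22.65 in TC1869. TC1088 also had the lowest level of *TSHR*, the thyrotropin receptor, with 1 count. The lowest levels of *PAX8* and *DIO1*, further markers of this cell, were in TC2289. The study grouped TC1088 with its follicular carcinomas and reported that it lacked the thyroid factor *NKX2-1*. It treated the tumor as an outlier and proposed that it might be de-differentiated. TC538 had the fewest reads and the smallest size factor, 0.279, against a highest size factor of 1.62.

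Collagens are sorted by the structure they build. Fibrillar collagens such as types I, III and V form the banded fibrils of connective tissue and are made mostly by fibroblasts. Type IV collagen forms the sheet of basement membranes, under thyroid follicles and around capillaries, from 3 sets of chains that come from 6 genes. Type VI collagen forms beaded filaments, type VII anchors epithelia to the stroma, FACIT collagens decorate fibrils, and transmembrane collagens such as type XVII sit in the cell surface. In whole tumor tissue, fewer cells of a type and less RNA per cell cannot be told apart.

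**Figure D1:**
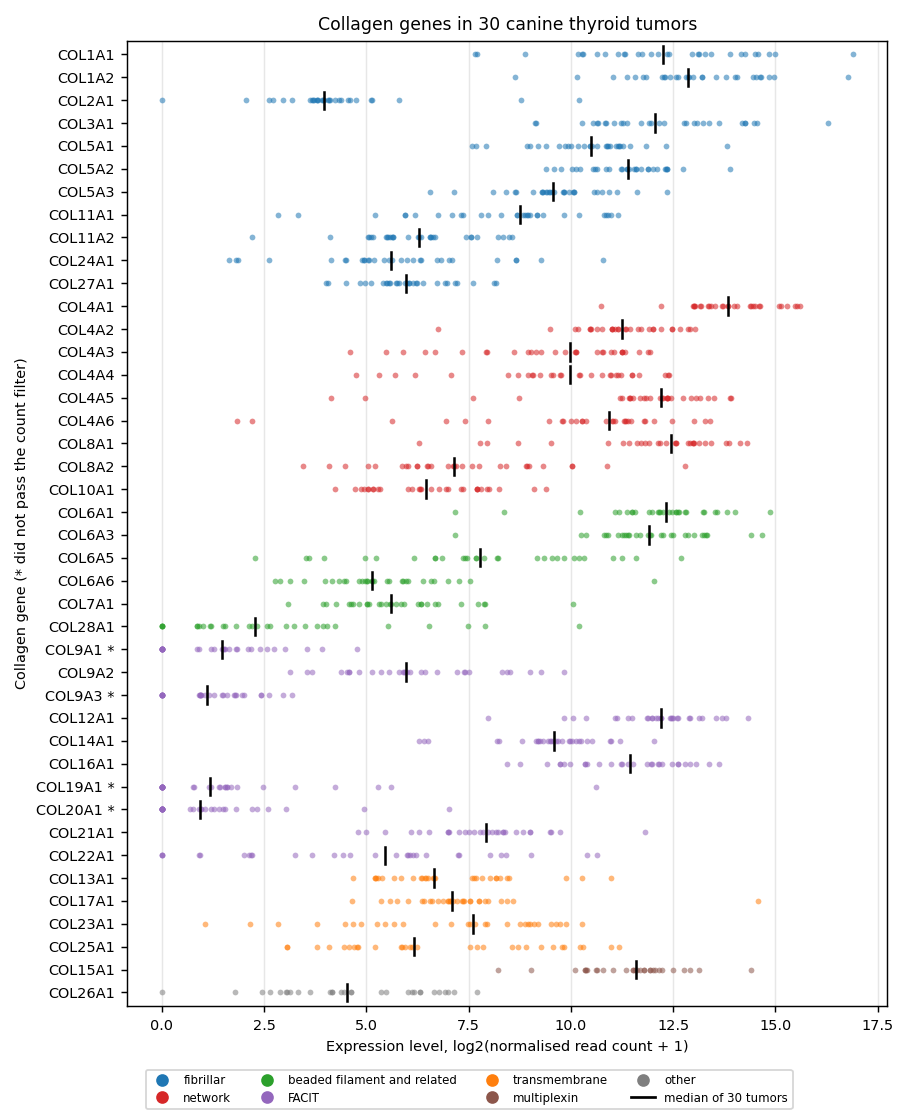
Levels of the 42 collagen genes as log2(normalised read count + 1) on the x axis, 1 point per tumor and 1 row per gene, with a black bar at the median of 30 tumors and color by structural class. Every row is spread over several log2 units, and *COL17A1* has 1 point, TC1088 at 14.59, far from a next highest value of 8.59; rows of different genes are not comparable because levels are not corrected for length.

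The collagen genes varied strongly from tumor to tumor. The standard deviation (SD) of the level over 30 tumors had a median of 1.68 over the 38 genes and ran from 1.02 for *COL5A2* to 3.08 for *COL22A1*. All 38 had an SD above 1, as had 45.75% of the 18711 genes that passed the same filter, where the median SD was 0.947. Within the larger branch, 36 of the 38 had an SD above 1, against 38.04% of 18106 genes. Together the collagen genes took between 0.0739% of all counts in TC538 and 2.03% in TC1601, the tumor with the highest level of 11 of the 38 genes. TC2289 was lowest for 7, TC1088 for 6 and TC538 for 5. A share of all counts, unlike a level, also depends on how abundant the other genes are. TC538 had 12288945 counts at a size factor of 0.279, and TC1601 had 29147072 at 1.17.

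The composition of the collagen counts also shifted. *COL4A1* took a median of 17.0% of a tumor's collagen counts, with a range from 4.42% in TC2289 to 32.1% in TC22. The 3 genes of types I and III, *COL1A1*, *COL1A2* and *COL3A1*, took together between 3.73% and 67.15% (median 21.93%). *COL17A1* took a median of 0.136%, but 41.7% of all collagen counts in TC1088.

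The genes of the major fibrils differed widely between tumors. *COL1A1*, the first chain of type I collagen, had its lowest level at 7.67 in TC1241, its median at 12.24 and its highest at 16.89 in TC1601, from 201 to 141292 counts. TC1088 lay close to the bottom at 7.70, and the second highest tumor, TC2011, was at 14.99. *COL1A2*, the partner chain, ran from 8.64 in TC1088 over a median of 12.87 to 16.77 in TC1601. *COL3A1*, whose product joins type I in mixed fibrils, ran from 9.11 in TC640 over 12.06 to 16.29 in TC1601. TC1601 thus led all 3 genes, and the second highest tumor was at 14.96 for *COL1A2* and 14.54 for *COL3A1*.

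The type V genes, whose chains help to set the diameter of fibrils, followed with SDs of 1.34, 1.02 and 1.20, against 2.15 for *COL1A1*. *COL5A1* had its lowest level at 7.58 in TC538, its median at 10.49 and its highest at 13.83 in TC1601. *COL5A2* ran from 9.40 over 11.41 to 13.89 and *COL5A3* from 6.55 over 9.57 to 12.36, again with TC1601 highest. *COL11A1*, a chain of the type XI fibrils of cartilage that is also made in tumor stroma, had an SD of 2.13 and ran from 2.84 in TC1218 over 8.76 to 11.15 in TC2110. *COL11A2*, another type XI chain, ran from 2.20 in TC538 over 6.28 to 8.57 in TC2289. The less studied fibrillar genes *COL24A1* and *COL27A1*, had medians of 5.59 and 5.96, and *COL24A1* reached 10.79 in TC2089.

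*COL2A1*, which codes for the collagen of cartilage, was low in most tumors. Its lowest level was 0 in TC627, where no read was counted, its median was 3.95 (16 counts) and its highest was 10.19 in TC1088 (1170 counts). TC1020 followed at 8.78 and TC812 at 5.80, so that TC1088 and TC1020 lay well above all other tumors.

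The basement membrane genes are given as 3 gene pairs, *COL4A1* with *COL4A2*, *COL4A3* with *COL4A4* and *COL4A5* with *COL4A6*. *COL4A1*, the chain found in nearly all basement membranes, had its lowest level at 10.74 in TC538, its median at 13.85 and its highest at 15.60 in TC1979. *COL4A2*, its partner, ran from 6.76 in TC538 over 11.24 to 13.02 in TC22. *COL4A3* and *COL4A4*, chains of the network best known from the kidney glomerulus, had lowest levels of 4.59 and 4.73, both in TC2289. Their medians were 9.98 each, and their highest levels were 11.95 and 12.40, both in TC640. *COL4A5* ran from 4.14 over 12.21 to 13.92 and *COL4A6* from 1.83 over 10.94 to 13.41, and for both the lowest tumor was TC2289 and the highest TC2089.

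The genes of the short chain networks each had another leading tumor, while TC1601 led *COL6A1*, *COL6A3* and *COL6A5*. *COL8A1* of type VIII, found in the walls of vessels, ran from 6.28 in TC2289 over 12.44 to 14.31 in TC1953. *COL8A2*, its partner, ran from 3.44 in TC1218 over 7.13 to 12.80 in TC815. *COL10A1*, known from the growth plate, ran from 4.24 in TC2289 over 6.46 to 9.39 in TC627. *COL6A1* and *COL6A3*, chains of the standard type VI filament, had medians of 12.32 and 11.90. Both were lowest in TC1088 (7.17 and 7.15) and highest in TC1601 (14.88 and 14.67). *COL6A5*, an alternative chain, ran from 2.28 in TC640 over 7.78 to 12.69 in TC1601.

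The genes with the 8 largest SDs came from 5 classes. *COL22A1*, a FACIT gene known from tissue junctions, had an SD of 3.08, with 0 counts in 3 tumors (TC1123, TC627 and TC812), a median of 5.47 and a highest level of 10.65 in TC1241. *COL4A6* (SD 2.81), *COL6A5* and *COL28A1* (2.54) followed in that order. *COL28A1* had 0 counts in 4 tumors and a median of 2.27, but 10.20 in TC1218. The transmembrane genes *COL23A1* (SD 2.49) and *COL25A1* (2.48) ran from 1.04 in TC1936 to 10.26 in TC815 and from 3.05 in TC812 to 11.17 in TC640. *COL4A5* had an SD of 2.30, and *COL1A1* and *COL24A1* shared the eighth place at 2.15. Within the 25 tumors of the larger branch the SD was only 0.77 for *COL4A5* and 1.55 for *COL4A6*. The order also depended on the pseudocount. With 8 instead of 1 over the 30 tumors, the SD was 2.52 for *COL4A6*, 2.25 for *COL22A1*, 1.73 for *COL28A1* and 1.77 for *COL24A1*, and the last 2 left the 8 largest.

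**Figure D2:**
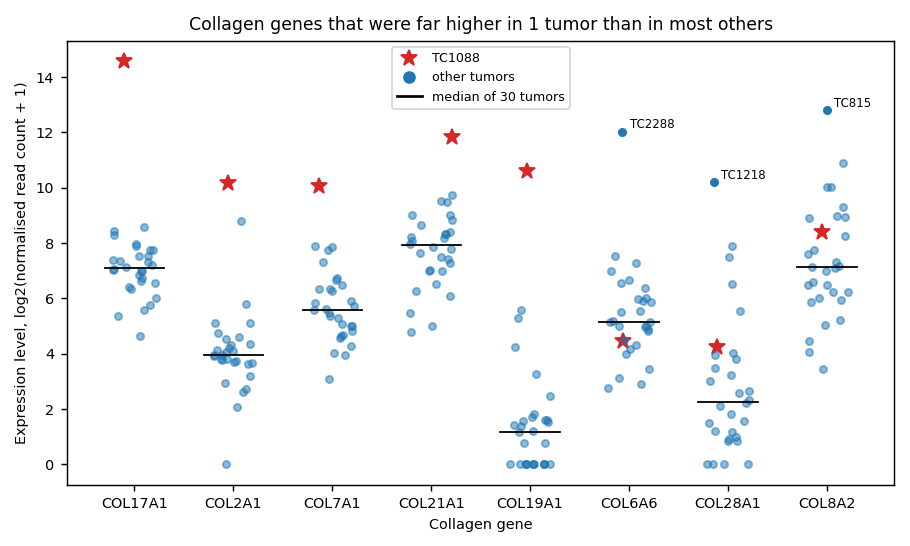
Levels, as log2(normalised read count + 1), of 8 collagen genes in which 1 tumor stood far above most others, chosen after their values were seen. Each point is a tumor, the bar is the median of 30 tumors, the red star is TC1088 and the highest other tumor is named where it led. TC1088 leads *COL17A1*, *COL2A1*, *COL7A1*, *COL21A1* and *COL19A1*, at levels from 10.06 to 14.59, while it lies within the other tumors for *COL6A6*, *COL28A1* and *COL8A2*.

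Several collagens were high in 1 tumor. *COL17A1*, the transmembrane collagen of hemidesmosomes, had its lowest level at 4.65 in TC1020, its median at 7.09 and its highest at 14.59 in TC1088, where 24723 reads were counted. Its level in TC1088 was 181-fold above the median on the scale of normalized counts plus 1, and the remaining 29 tumors stayed at or below 8.59. *COL7A1*, the collagen of anchoring fibrils, was also highest in TC1088, at 10.06 against a median of 5.59 and a second highest level of 7.90. The FACIT gene *COL21A1* reached 11.82 in TC1088, with a median of 7.92 and a next value of 9.72. *COL19A1* had 1569 counts in TC1088 and 0 counts in 12 tumors. *COL6A6*, a further type VI chain, stood apart in another tumor, with 12.03 in TC2288, a median of 5.14 and a second highest level of 7.52.

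The remaining genes had less extreme values. Among FACIT genes, *COL12A1* ran from 7.98 in TC1088 over 12.20 to 14.33 in TC1473 and *COL14A1* from 6.30 in TC812 over 9.60 to 12.04 in TC1601. *COL16A1* ran from 8.43 over 11.46 to 13.61 and *COL9A2* from 3.14 over 5.97 to 9.82. *COL15A1*, a basement membrane collagen of the multiplexin class, ran from 8.22 in TC1088 over 11.59 to 14.41 in TC1601. *COL13A1*, a transmembrane gene, ran from 4.66 over 6.65 to 10.97, and *COL26A1* from 0 in TC2110 over 4.54 to 7.70. Of the 4 genes below the count filter, *COL9A1* reached 29 counts, *COL9A3* 10 and *COL20A1* 133.

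To ask which collagens were used together, Spearman's rho was computed for all pairs of the 38 genes over the 25 tumors of the larger branch, as a description over tumors that share the same libraries and scaling. Of 703 pairs, 94 (13.37%) had a rho above 0.5, as had 5.78% of the pairs among all 18106 genes. The median rho was 0.13. In the fibrillar class 16 of 55 pairs were above 0.5, in the network class 3 of 36, and in the FACIT class 0 of 15. High values also joined different classes: *COL4A1* with *COL6A1* (0.94), *COL5A3* with *COL6A1* (0.94) and *COL4A1* with *COL5A3* (0.93). The lowest value was that of *COL24A1* with *COL25A1* (-0.63).

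**Figure D3:**
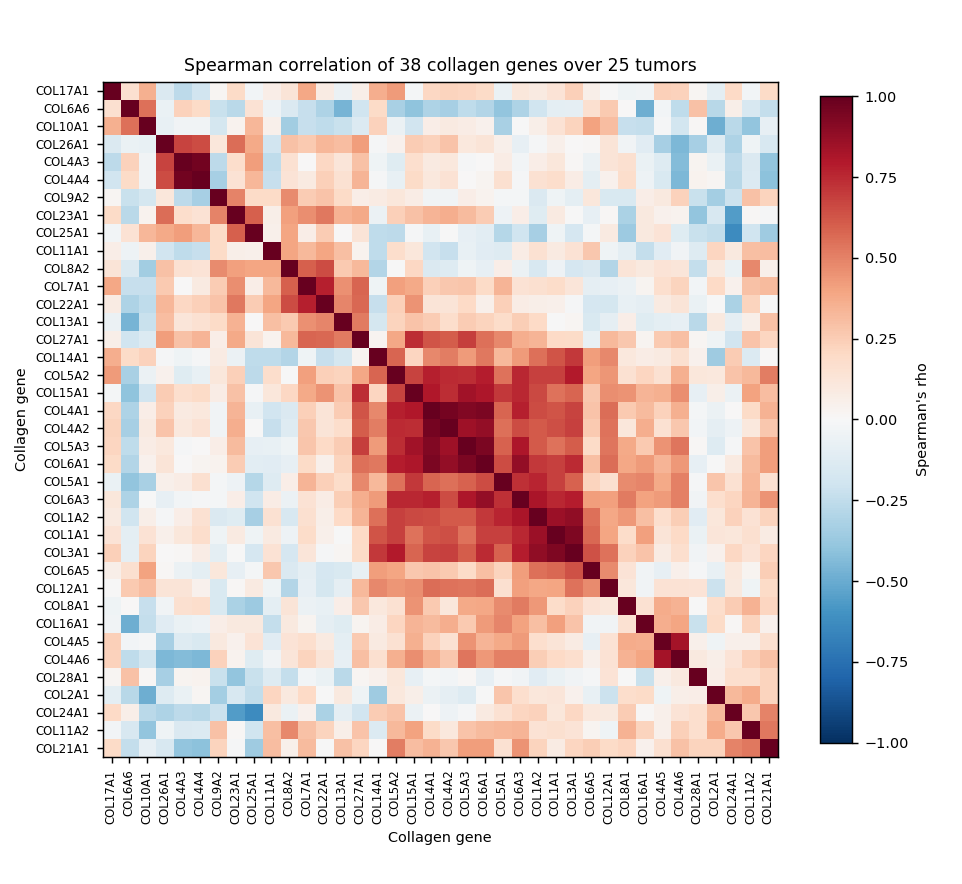
Spearman's rho between the levels of 38 collagen genes over 25 tumors, with genes on both axes ordered by average linkage and color from blue (-1) to red (1). A red block holds *COL1A1*, *COL1A2*, *COL3A1*, the type V genes, *COL4A1*, *COL4A2*, *COL6A1*, *COL6A3* and *COL15A1*, and *COL4A3* with *COL4A4* and *COL4A5* with *COL4A6* form 2 small blocks apart from it.

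Chosen pairs of collagen genes were then tested, with Pearson's r and Spearman's rho over the 25 tumors. Two-sided tests used 100000 permutations, with Benjamini-Hochberg adjustment over the 20 pairs computed. Some pairs are chains that assemble into 1 molecule or fibril. Others, such as *COL1A1* with *COL4A1* and *COL7A1* with *COL17A1*, are not. The smallest p the permutations can give is 1e-05. By rho, 12 of 20 pairs passed at an adjusted p below 0.05, among them *COL1A1* with *COL4A1* and the inverse pair *COL2A1* with *COL10A1*. The test was run on these 20 pairs alone, so the share of all gene pairs that would pass is not known. A rho above 0.5 was found in 13.37% of the 703 collagen pairs and 5.78% of the pairs among all genes.

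The type I and III genes were tightly linked. *COL1A1* and *COL3A1* had r = 0.88 and rho = 0.93 (permutation p = 1e-05 for both, adjusted p = 5e-05 and 3.33e-05). *COL1A1* and *COL1A2* had r = 0.80 and rho = 0.86 (permutation p = 2e-05 and 1e-05, adjusted p = 8e-05 and 3.33e-05). Without the 2 tumors farthest from the median of *COL1A1*, TC1241 and TC1088, r was 0.90 and 0.85. *COL5A1* followed *COL1A1* with r = 0.67 and rho = 0.68 (permutation p = 0.00032 and 0.00017, adjusted p = 0.0008 and 0.000486), and r was 0.74 without the same 2 tumors. Among the type V chains, *COL5A1* and *COL5A3* had r = 0.69 and rho = 0.59 (permutation p = 0.00013 and 0.00243, adjusted p = 0.000371 and 0.0054), with r = 0.45 when TC538 and TC1088 were left out. *COL5A1* and *COL5A2* had r = 0.46 and rho = 0.54 (permutation p = 0.0215 and 0.00596, adjusted p = 0.0332 and 0.0119), with r = 0.51 without those tumors.

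Each type IV gene followed its neighbour on the chromosome. These genes lie in 3 pairs, transcribed away from each other from a shared start region, and the pairs were also next to each other in the RefSeq gene order of the assembly UU_Cfam_GSD_1.0. *COL4A1* and *COL4A2* had r = 0.97 and rho = 0.96, *COL4A3* and *COL4A4* had r = 0.95 and rho = 0.97 (permutation p = 1e-05 for all 4 values, adjusted p = 5e-05 for r and 3.33e-05 for rho). *COL4A5* and *COL4A6* had r = 0.76 and rho = 0.83 (permutation p = 3e-05 and 1e-05, adjusted p = 0.0001 and 3.33e-05). Leaving out the 2 tumors farthest from the median of the first gene gave r = 0.96, 0.94 and 0.68. In each of the 3 pairs, the partner ranked first by rho among 18105 genes, in both directions. Because the strand setting of the counting is not stated, reads from the region where such neighbours meet could have been given to either.

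Chains of different pairs were not linked in the same way. *COL4A3* and *COL4A5*, whose products assemble into 1 molecule with that of *COL4A4*, had r = -0.07 and rho = -0.13 (permutation p = 0.74 and 0.542, adjusted p = 0.746 and 0.542). With all 30 tumors the rho was 0.32 (adjusted p = 0.127), of the opposite sign. *COL4A1* and *COL4A5* had r = 0.24 and rho = 0.23 (permutation p = 0.245 and 0.272, adjusted p = 0.306 and 0.363). *COL6A5* and *COL6A6* are also neighbours in the RefSeq order, but had r = 0.17 and rho = 0.16 (permutation p = 0.426 and 0.445, adjusted p = 0.473 and 0.495). A weak relation between these genes would not be detectable over 25 tumors.

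**Figure D4:**
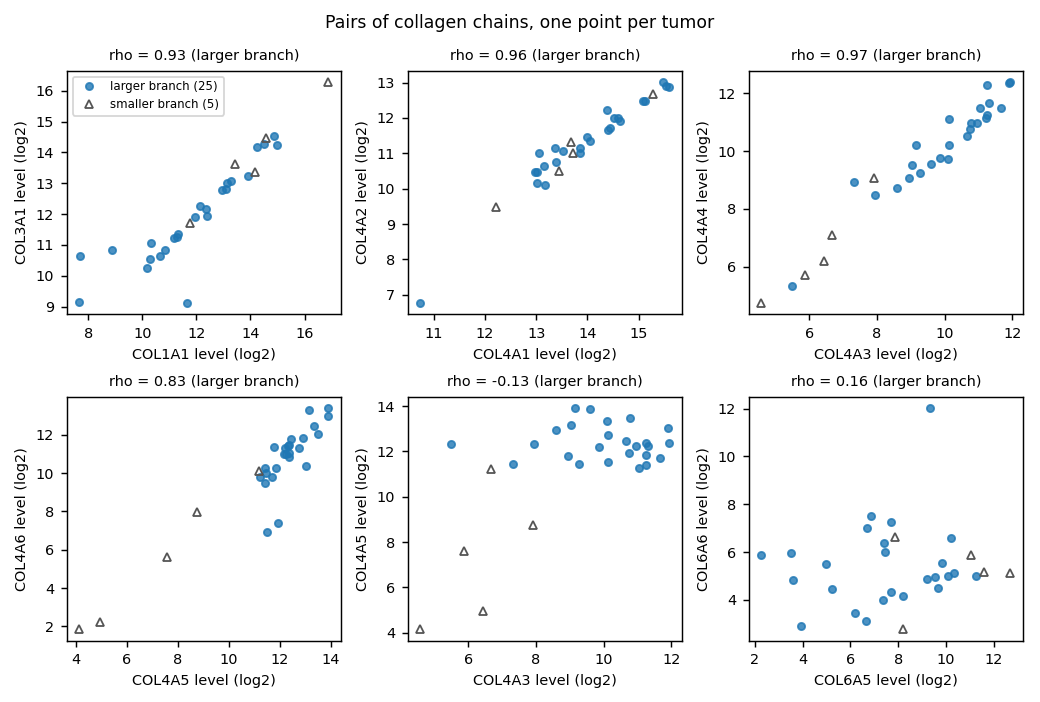
Levels (log2) of 6 pairs of collagen genes, 1 point per tumor, with blue circles for the 25 tumors of the larger branch and open triangles for the 5 of the smaller branch, and the rho of the larger branch above each panel. *COL4A1* with *COL4A2* (0.96), *COL4A3* with *COL4A4* (0.97) and *COL4A5* with *COL4A6* (0.83) rise along a line. *COL4A3* with *COL4A5* (-0.13) and *COL6A5* with *COL6A6* (0.16) do not. No test compared the branches.

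Outside these families, *COL6A1* and *COL6A3* had r = 0.86 and rho = 0.88 (permutation p = 1e-05 for both, adjusted p = 5e-05 and 3.33e-05), with r = 0.83 without TC1088 and TC538. *COL1A1* and *COL4A1*, chosen to link fibrils and basement membranes, had r = 0.56 and rho = 0.63 (permutation p = 0.00349 and 0.00088, adjusted p = 0.00635 and 0.0022), with r = 0.53 without TC1241 and TC1088. *COL12A1* and *COL14A1*, related FACIT genes, had r = 0.59 and rho = 0.48 (permutation p = 0.00323 and 0.0157, adjusted p = 0.00635 and 0.0261). Their r was 0.68 without TC1088 and TC812, but their rho fell to 0.39 (permutation p = 0.0648). *COL2A1* and *COL10A1* ran in opposite directions, with r = -0.59 and rho = -0.49 (permutation p = 0.00067 and 0.0143, adjusted p = 0.00149 and 0.026). That relation rested in part on TC1088 and TC627, without which r was -0.43 and rho -0.35 (permutation p = 0.0404 and 0.102).

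For *COL7A1* and *COL17A1*, both of the junction between epithelium and stroma, Pearson's r and Spearman's rho differed. The r was 0.71 (permutation p = 0.00469, adjusted p = 0.00782), but the rho was 0.38 (permutation p = 0.0585, adjusted p = 0.09), and without TC1088 and TC627 the r was 0.34 (permutation p = 0.112). The remaining pairs did not pass: *COL5A2* with *COL11A1* had a rho of 0.17, *COL8A1* with *COL8A2* 0.13, and *COL2A1* with *COL11A1* and *COL11A2* 0.21 and 0.37.

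Next, the counts of every gene were fitted on the level of a single collagen gene over the 25 tumors with edgeR's quasi-likelihood test, with Benjamini-Hochberg adjustment over 18105 genes. The slope is the log2 change of a gene for each log2 unit, or doubling, of the collagen gene. A gene is said to rise or fall where the adjusted p was below 0.05.

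With *COL1A1*, 0.74% of the 18105 genes rose and 1.13% fell, 339 genes in all. Without TC1088, 71 genes rose and 20 fell. Of the 37 other collagen genes, 4 rose: *COL6A5* by 0.82 ± 0.21 (SE, edgeR adjusted p = 0.0411), *COL3A1* by 0.63 ± 0.06 (1.48e-06), *COL6A3* by 0.47 ± 0.08 (0.00268) and *COL1A2* by 0.46 ± 0.08 (0.00247). *COL17A1* and *COL2A1* fell, with slopes of -0.76 ± 0.12 (edgeR adjusted p = 0.00121) and -0.64 ± 0.12 (0.00438). *COL28A1* had a slope of -0.72 ± 0.26 that did not pass (edgeR adjusted p = 0.154), and a slope of 0.16 without TC1218, its highest tumor. The median slope was 0.14 over the 37 genes and -0.02 over all genes. Each of the 25 tumors was then left out in turn. The calls of *COL3A1*, *COL1A2* and *COL6A3* stood in all 25 fits, that of *COL6A5* in 8, and those of *COL17A1* and *COL2A1* in 24. Without TC1088 the slopes of *COL17A1* and *COL2A1* were 0.08 (edgeR adjusted p = 0.656) and 0.04 (0.895), so both falls rested on that tumor.

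The genes most like *COL1A1* by rho were *TMEM119* (0.94), *COL3A1* (0.93), *THBS2* (0.92), *PCOLCE* (0.89) and *MFAP4* (0.88). *PCOLCE* codes for the enhancer of the protease that trims procollagen, and *THBS2* for a matrix protein that binds fibrils. *TMEM119* rose by 1.01 ± 0.10 and *THBS2* by 0.94 ± 0.10 per log2 unit (edgeR adjusted p = 1.24e-06 and 1.48e-06). The called genes with the lowest rho were *RBMX* (-0.67), *ZNF287* (-0.66) and *RPL22* (-0.65).

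Genes that work on collagen gave a mixed picture with *COL1A1*. Of 7 genes of procollagen processing tested, 3 rose: *PCOLCE* by 0.43, *ADAMTS14* by 0.41 and *ADAMTS2* by 0.35, the last of these an enzyme that removes the N-propeptide of types I to III. Of 10 genes of fibril-associated proteins, 3 rose (*THBS2*, *PRELP* by 0.66 and *TNXB* by 0.51). By edgeR, 0 of 17 chaperones and modifying enzymes, 0 of 6 crosslinking enzymes, 0 of 8 receptors and 0 of 7 regulators were called. Of them, 4, 2, 1 and 2 had an unadjusted p below 0.05, and DESeq2 called 1, 1, 0 and 1. Over all 18105 genes, 3436 had an unadjusted edgeR p below 0.05, and DESeq2 called 353 rising and 367 falling. Among fibroblast markers, 6 of 10 rose, with *DCN* by 1.09 and *MFAP5* by 1.01 the steepest, and 6 also without TC1088. Of 7 smooth muscle and pericyte markers 2 rose (*CNN1* and *TAGLN*), of 6 endothelial markers 1 (*VWF*), and of 3 adipocyte markers 1 (*LEP*). Without TC1088, 2 procollagen processing genes, 2 fibril-associated genes, 1 smooth muscle and pericyte marker and 1 adipocyte marker rose. In that edgeR fit 0 of 6 endothelial markers were called, with 2 at an unadjusted p below 0.05, as were 2482 of all 18008 genes. The summed fibroblast markers followed *COL1A1* with r = 0.76 and rho = 0.83 (permutation p = 1e-05 for both, adjusted p = 0.00026 and 0.000173 over 52 relations), and r was 0.71 without the same 2 tumors as above. The part of fibroblast content in the slopes was not tested.

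With *COL4A1*, far more genes moved: 10.6% of the 18105 genes rose and 19.9% fell. Of the 37 other collagen genes, 11 rose and 3 fell. The steepest rises were those of *COL6A1* by 1.16 ± 0.14 (edgeR adjusted p = 2.77e-06), *COL4A2* by 1.09 ± 0.08 (2.78e-09) and *COL1A1* by 1.05 ± 0.27 (0.00522). *COL5A3* (0.93), *COL3A1* (0.83), *COL1A2* (0.81), *COL15A1* (0.80), *COL4A6* (0.74), *COL6A3* (0.67), *COL5A2* (0.67) and *COL5A1* (0.66) rose as well. *COL28A1* had a larger slope, 1.47 ± 0.68, that did not pass (edgeR adjusted p = 0.0975), and a slope of 0.84 without TC1218. The median slope was 0.40 over the 37 genes and -0.01 over all genes.

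The calls of 9 of the 11 rising genes stood in all 25 fits that left out 1 tumor. *COL5A1* lost its call without TC538 (edgeR adjusted p = 0.115), and *COL4A6* kept it in 12 fits and had its smallest slope, 0.53, without TC538 (0.262). The 3 falling genes each depended on 1 tumor. *COL6A6* had a slope of -1.86 ± 0.47 (edgeR adjusted p = 0.00461), but -0.44 without TC2288 (0.114). *COL17A1* and *COL2A1* had slopes of -1.62 ± 0.48 and -1.45 ± 0.43 (0.0123 and 0.0137), but 0.21 and -0.07 without TC1088 (0.236 and 0.824).

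**Figure D5:**
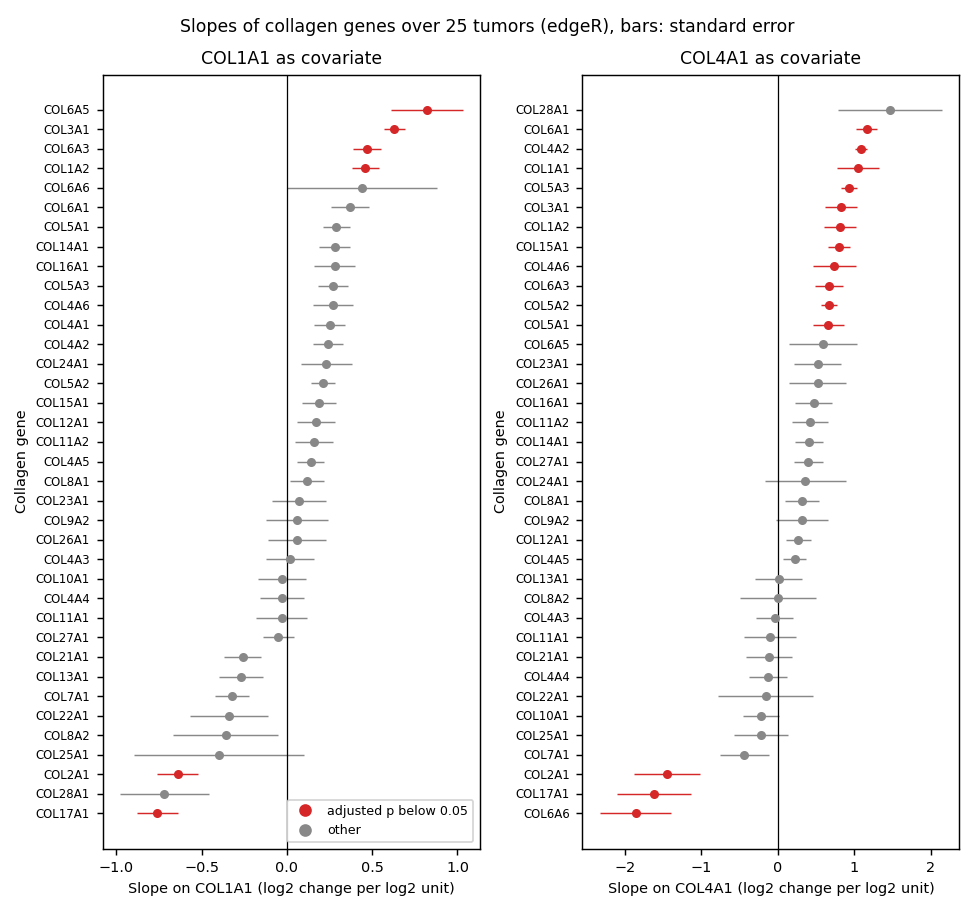
Slopes of 37 collagen genes on *COL1A1* (left) and *COL4A1* (right) over 25 tumors, as log2 change per log2 unit on the x axis, with bars of 1 standard error and red for an edgeR adjusted p below 0.05. On the left 4 genes rose and 2 fell, on the right 11 rose and 3 fell, and each of the falls was lost without 1 tumor, TC1088 or TC2288.

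The genes most like *COL4A1* were *COL4A2*, *MCAM* and *ROBO4* (rho 0.96 each), followed by *PDGFRB* and *CD248* (0.95 each). *ROBO4* is known from endothelial cells, and *PDGFRB*, *MCAM* and *CD248* from pericytes and other cells of the vessel wall. The called genes with the lowest rho were *NSUN6*, *OMA1* and *REST* (-0.81 each). All 6 endothelial markers rose with *COL4A1*, with *CDH5* by 0.89 ± 0.09 the steepest, and 5 of 7 smooth muscle and pericyte markers rose, *NOTCH3* by 0.88 ± 0.12. Both counts were the same without TC1088, and they were 6 and 6 without TC538. Of 10 fibroblast markers 2 rose, *THY1* and *PDGFRB*. The summed endothelial markers followed *COL4A1* with r = 0.83 and rho = 0.92 (permutation p = 1e-05 for both, adjusted p = 0.00026 and 0.000173), with r = 0.91 without TC538 and TC1979. The part of vessel content in these slopes was not tested.

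Among the genes that work on collagen, 6 of 17 chaperones and modifying enzymes rose with *COL4A1* and 2 fell. Over all 18105 genes, 10.6% rose and 19.9% fell. The rising chaperones and enzymes included *P3H4* by 0.82, *SERPINH1*, the collagen chaperone, by 0.53 and *PLOD3*, which modifies type IV chains, by 0.52. The falling ones were *PLOD2* (-0.73) and *P4HA1* (-0.43), a lysyl hydroxylase and a prolyl hydroxylase subunit. Of 6 crosslinking enzymes 1 rose, *LOXL2* by 0.78, and of 8 collagen receptors 2 rose, *DDR2* by 0.76 and *MRC2* by 0.84. Of 7 regulators 2 rose, *TGFB1* and *PRRX1*, and of 10 fibril-associated genes 5. Most of these calls were lost without TC538, where 1 of the 17 chaperones and modifying enzymes rose and 1 fell, and 1 receptor, 1 crosslinking enzyme and 2 fibril-associated genes rose. For the 7 regulators that edgeR fit called 0, with 2 at an unadjusted p below 0.05, as were 4833 of all 18058 genes. Without TC1088, 3 fibril-associated genes rose. Of 7 procollagen processing genes, 2 rose with *COL4A1* and 1 fell in the fit with all 25 tumors.

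*COL4A1* also followed the total count of the tumors, with r = 0.60 and rho = 0.55 (permutation p = 0.00175 and 0.00508, adjusted p = 0.013 and 0.0294), and with r = 0.39 without TC538 and TC1979. With the total count as a second covariate, 10 collagen genes rose and 2 fell, and the calls over all genes dropped from 5521 to 1312. Without TC538 they dropped to 1665, with 10 collagen genes rising and 3 falling.

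Because *COL1A1* and *COL4A1* were correlated, both were entered in 1 fit, an alternative chosen after seeing the data. At a given level of *COL4A1*, 0.215% of 18104 genes rose with *COL1A1* and 0.403% fell. Of 36 collagen genes only *COL3A1* rose in that fit (0.57 ± 0.08, edgeR adjusted p = 0.000418) and only *COL17A1* fell (-0.90 ± 0.21, 0.0467). Without TC1088 the slope of *COL17A1* in that fit was 0.03 (edgeR adjusted p = 0.999), and its call was also lost without TC538 (-0.80, 0.146) or TC2288 (-0.95, 0.0839). *COL3A1* was called without each of these 3 tumors, with slopes from 0.55 to 0.68. With all 25 tumors *COL6A3* had a slope of 0.39 (0.0509) and *COL1A2* one of 0.37 (0.0816). At a given level of *COL1A1*, 7.46% of the genes rose with *COL4A1* and 14.2% fell. In the collagen family 7 rose: *COL28A1* by 1.54, *COL4A2* by 1.14, *COL6A1* by 1.03, *COL5A3* by 0.89, *COL15A1* by 0.82, *COL27A1* by 0.77 and *COL5A2* by 0.61. *COL6A6* fell, with a slope of -1.98 ± 0.47 (edgeR adjusted p = 0.00403), but -0.49 without TC2288 (0.174). The call of *COL28A1* was lost without TC1088, TC538 or TC2288 (edgeR adjusted p = 0.0563, 0.0821 and 0.0675), and those of *COL15A1* and *COL27A1* without TC538 (0.0538 and 0.104). *COL28A1* had at least 10 counts in only 9 of the 30 tumors, and its highest tumor, TC1218, was not left out of this fit. In the fit with all 25 tumors, 4 of 10 fibroblast and 0 of 6 endothelial markers rose with *COL1A1*, and 2 of 10 and 6 of 6 with *COL4A1*, where 2 fibroblast markers fell, but 0 without TC538. Of the endothelial markers 1 had an unadjusted edgeR p below 0.05 with *COL1A1*, as had 1850 of all 18104 genes. The slopes on the 2 genes were not tested against each other.

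Few genes beyond its partner were called with *COL4A5*. With it, 0.0331% of the 18105 genes rose and 0.00552% fell, which is 7 genes by edgeR, while 1471 had an unadjusted p below 0.05. *COL4A6* rose by 1.36 ± 0.22 (edgeR adjusted p = 0.00864), and no other collagen gene was called, while 11 of the 37 had an unadjusted p below 0.05. In the 25 tumors *COL4A5* ran only from 11.25 to 13.92 (SD 0.77), a narrow range on which to fit a slope. DESeq2 called 89 genes, with 2 collagen genes rising. Over all genes with a symbol, those most like *COL4A5* were *COL4A6* (rho 0.83), *GTPBP2* (0.80), *TET3* (0.80), *DNMT3A* (0.79) and *BCL9* (0.71). Of these only *COL4A6* was called. The called genes with the next highest rho were *BOC* (0.71), *NTF3* (0.47), *CTSE* (0.20) and *WNT11* (0.19). By rho *CTSE* and *WNT11* ranked only 3537 and 3836 among all genes. The largest other slopes in the family were those of *COL6A6* (1.97 ± 0.67, edgeR adjusted p = 0.431), *COL8A2* (1.16 ± 0.49, 0.559) and *COL25A1* (0.95 ± 0.74, 0.733). The smallest were those of *COL17A1* (-1.86 ± 0.51, edgeR adjusted p = 0.243), *COL2A1* (-1.47 ± 0.46, 0.363) and *COL26A1* (-0.98 ± 0.52, 0.637), and the slopes of *COL17A1* and *COL2A1* were 0.40 and 0.13 without TC1088.

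With *COL2A1*, 2.07% of the 18105 genes rose and 0.199% fell. *COL17A1* rose by 0.73 ± 0.08, *COL7A1* by 0.58 ± 0.09 and *COL21A1* by 0.43 ± 0.09 (edgeR adjusted p = 4.16e-07, 7.38e-05 and 0.00784), and *COL10A1* fell, with a slope of -0.45 ± 0.11 (0.0186). *COL24A1* had the largest slope, 0.90 ± 0.36, and *COL6A6* and *COL28A1* had slopes of -0.76 ± 0.26 and -0.54 ± 0.36, none of which passed (edgeR adjusted p = 0.259, 0.154 and 0.649). All 4 calls were lost without TC1088, where the slopes of the 4 called genes were -0.13, 0.20, 0.13 and -0.64 and the calls over all genes dropped from 411 to 6. Of 5 cartilage markers, edgeR called 0, with 0 at an unadjusted p below 0.05, and DESeq2 called 1. Over all 18105 genes, 2146 had an unadjusted edgeR p below 0.05, and DESeq2 called 439 rising and 419 falling. Over all genes with a symbol, those most like *COL2A1* were *PLAAT4* (rho 0.74), *CYP2R1* (0.73), *ISY1* (0.70), *TGFB3* (0.65) and *IFT43* (0.64). *ISY1*, *TGFB3* and *IFT43* were not called. Among called genes, *PLAAT4* and *CYP2R1* were followed by *KCNH1* (0.62), *FIGNL1* (0.61) and *CHDH* (0.61). The least like were *TRHR* (-0.77), which codes for the receptor of thyrotropin-releasing hormone, *GRK3* (-0.55) and *ATG4A* (-0.54).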

How the data were processed

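Total RNA of 30 primary canine thyroid tumors was sequenced. The authors aligned reads to the CanFam3.1 genome using STAR, and the deposited values are raw counts per Ensembl gene. The strand setting is not given in the sources used here. Each tumor is 1 library, 0 pairs of libraries had identical counts, and p-values rest on the spread between tumors. Collagen genes, lists and pairs were chosen with earlier results of these data known.

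Levels used median-of-ratios size factors over 15611 genes and a pseudocount of 1. Branches came from Ward clustering of genes whose mean was above 2 and variance above 6. Slopes were fitted with edgeR 4.0.16 (TMM, quasi-likelihood) in R 4.3.3, and SE is the slope over the square root of F. DESeq2 1.42.0 was an alternative, and an adjusted p it gave as NA (351 genes for *COL4A5* and *COL2A1*) stayed out of its calls. The fits were also run on counts simulated with known slopes on *COL1A1*. Those counts held no outlying tumor, so that run cannot show how far calls depend on 1 tumor. Correlations used Python 3.11.15 and scipy 1.17.1. Of 27 planned pairs 7 were not computed, because a gene had no row or too few counts. Named genes were the 4 covariate genes, the members of pairs, the 8 largest SDs, the 3 largest and smallest slopes, the 5 highest and 3 lowest by rho, and the steepest of each list. Alternatives were all 30 tumors, leaving out TC1088, TC538 or each tumor in turn, other scaling, count filters and pseudocount, and added covariates, also with 1 tumor left out.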

Additional observations from a re-analysis of the deposited data

How the results depend on the processing

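The pairs passing the test numbered 12 and kept within 1.5 times of that under every alternative run, as did the median SD of the collagen genes. The counts of genes called were less stable. With *COL1A1*, 339 genes were called, but 815 with all 30 tumors, 91 without TC1088, 720 with DESeq2, 717 with no count filter, 213 with at least 50 counts and 112 with *COL4A1* added. Collagen genes rising with it then numbered 10 with all 30 tumors and 1 with *COL4A1* added, and those falling 1 with all 30 tumors, 0 without TC1088, 1 with at least 50 counts and 1 with *COL4A1* added. With *COL4A1*, 5521 became 1312 with the total count as covariate and 1665 without TC538, and with *COL1A1* added 7 collagen genes rose and 1 fell, as 1 did without TC1088. With *COL4A5*, 7 became 3234 with all 30 tumors, 3 without TC1088, 89 with DESeq2, 231 with no count filter, 2 with at least 50 counts and 1 with the total count as covariate. Collagen genes rising with it became 7 and falling 1 with all 30 tumors, and 2 rose with DESeq2. With *COL2A1*, 411 became 6 without TC1088, 858 with DESeq2, 809 with no count filter and 256 with at least 50 counts, and collagen calls became 0 rising and 0 falling without TC1088 and 2 falling with DESeq2. In the fits with both covariate genes, leaving out TC1088, TC538 or TC2288 gave 52, 33 and 35 genes called with *COL1A1*, with 1 collagen gene rising and 0 falling each time, and 4010, 386 and 3203 with *COL4A1*, with 6, 4 and 6 collagen genes rising and 1, 1 and 0 falling. The causes were not tested.

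Leaving out each of the 25 tumors in turn gave 91 to 434 genes called with *COL1A1*, 3 to 4 collagen genes rising and 0 to 2 falling. With *COL4A1* it gave 1665 to 6594 genes, 10 to 11 rising and 1 to 3 falling.

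Signs turned for 17 values. Without TC1088, the slopes of *COL17A1* and *COL2A1* were 0.08 and 0.04 on *COL1A1*, that of *COL17A1* was 0.21 on *COL4A1*, both were 0.40 and 0.13 on *COL4A5*, and that of *COL17A1* was -0.13 on *COL2A1*. With all 30 tumors, *COL17A1* and *COL26A1* had slopes of 0.05 and 0.16 on *COL4A5*, and *COL4A3* with *COL4A5* a rho of 0.32. With *COL1A1* added, *COL17A1* and *COL2A1* had slopes of 0.54 and 0.20 on *COL4A1*. In that fit *COL17A1* also had slopes on *COL4A1* of 0.19, 0.15 and 0.73 without TC1088, TC538 and TC2288, *COL2A1* one of 0.07 without TC2288, and without TC1088 both had slopes on *COL1A1* of 0.03 and 0.09. Of the other values in that set, 400 kept their direction and side of the threshold, 56 lost their call and 5 gained one. Collagen slopes outside the set turned as well. Without TC1088, *COL21A1* went from -0.12 to 0.58 (edgeR adjusted p = 0.037) and *COL7A1* from -0.44 to 0.37 on *COL4A1*. On *COL1A1* they went from -0.26 to 0.13 and from -0.32 to 0.11. No paired analysis was possible because the tumors form 1 group.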

Other observations

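The low values of *COL4A5* and *COL4A6* lay apart from the rest. They are given tumor by tumor, with no test between branches, since the labels put all tumors in 1 group. *COL4A5* was between 11.21 and 13.92 in 26 tumors. The other 4 were TC1601 at 8.74 (497 counts), TC1020 with 199 counts, TC1473 at 4.96 (33 counts) and TC2289 at 4.14 (13 counts). *COL4A6* was at 7.98 in TC1601, 5.63 in TC1020, 2.21 in TC1473 and 1.83 in TC2289, where 2 reads were counted, while TC1936, of the same branch, had 10.13. Low values of *COL4A6* also occurred in TC538 (7.41, 47 counts) and TC1869 (6.94, 139 counts), in which *COL4A5* was at 11.95 and 11.52. In TC1601, TC1020, TC1473 and TC2289, the summed level of the C cell markers was 18.1, 19.0, 18.2 and 17.7, against at most 13.1 in the larger branch, and it was 19.4 in TC1936. The summed thyroid follicular cell markers were at 17.8, 11.7, 11.2 and 8.62 in the same 4 tumors and at 12.9 in TC1936, with a range from 7.66 to 22.7 in the larger branch. The study names TC1020, TC1601, TC1936 and TC2289 among its medullary carcinomas. Its main text does not give the type of TC1473. The part of either cell type in the low values was not tested.

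Because *COL17A1* and *COL7A1* were both highest in TC1088, other genes of hemidesmosomes and of the laminin that binds them were read off in that tumor, a list chosen after those values were seen. *KRT14*, a keratin of basal epithelial cells, was at 15.69 in TC1088, above the range of 0 to 13.17 in the other 29 tumors. *LAMA3* and *LAMB3*, chains of laminin-332, were second highest there at 14.05 and 13.38. *ITGB4* was at 14.23, place 4, but *ITGA6* at 12.18 and *CD151* at 12.02 lay near their medians of 12.08 and 12.34, and *PLEC* at 13.41 was below its median of 14.27. The pattern was not tested, since it rests on 1 tumor.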
